A study of Mus musculus with 16 samples.

Results

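The nuclear genes of oxidative phosphorylation were examined in RNA from punches of the ventral posterolateral nuclei, a somatosensory relay of the mouse thalamus. Members were protein-coding genes whose symbol begins as those of the subunits of NADH dehydrogenase (Ndufa, Ndufb, Ndufc, Ndufs or Ndufv with a number, complex I), succinate dehydrogenase (Sdha to Sdhd, complex II), the cytochrome bc1 complex (Uqcr, complex III), cytochrome c oxidase (Cox4 to Cox8, complex IV) or ATP synthase (Atp5, complex V). Of 38924 gene IDs in the count tables, 84 had such a symbol, and the 80 with a mean CPM (counts of the gene per 1000000 gene counts of the library) of at least 1 over the 16 libraries are the members. All levels below are CPM on library totals scaled by TMM, a trimmed mean of the ratios between libraries. They comprised 37 genes of complex I, 4 of complex II, 8 of complex III, 14 of complex IV and 17 of complex V. The 4 left below that level were Cox6a2, Cox7b2, Cox8b and Cox8c.

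The respiratory chain passes electrons from NADH and succinate to oxygen, pumps protons across the inner mitochondrial membrane, and so drives ATP synthase. Most subunits are encoded in the nucleus and imported, while the core subunits of all complexes but succinate dehydrogenase are partly encoded by mitochondrial DNA, so both genomes must supply parts in proportion. Neurons with long axons and continuous firing, such as thalamic relay cells, draw most of their ATP from this pathway, and glial cells carry it as well.

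The study was designed to lower Rgs4, a regulator of G protein signalling, in this part of the thalamus with a virus (AAV) that delivers Cre to mice whose Rgs4 is floxed, and used complete Freund's adjuvant (CFA), an irritant that causes lasting inflammation. The groups had 4 libraries each: naive libraries labelled KO (5 to 8), naive wild-type (WT) libraries (1 to 4), CFA libraries labelled KO (13 to 16) and CFA WT libraries (9 to 12). Each library pooled bilateral punches from 2 mice, 4 punches of 12 gauge in all. The sources used here do not say whether the KO label stands for virus-treated floxed mice or for another allele, give no time after CFA, and do not give the animals' age or background strain. The protocol text names male mice while the sample labels name females, and Xist was at 560 to 750 CPM in all 16 libraries. Y-linked genes summed to at most 0.173 CPM, except 1.29 CPM in WT naive library 2. Gene counts per library ran from 18057885 to 78773967, with 18057885 to 43653243 in naive libraries labelled KO and 36379579 to 54678830 in WT naive libraries. The KO label was not matched by a fall in Rgs4, which had 81.3 ± 2.74 CPM in naive libraries labelled KO and 80.9 ± 3.66 CPM in WT naive libraries (SD, n = 4 each; exact two-sided permutation test p = 0.886), and 84.1 ± 5.50 CPM in CFA libraries labelled KO and 89.3 ± 6.66 CPM in CFA WT libraries (exact p = 0.229). The smallest p that 4 against 4 libraries allow is 0.0286. Genotype is therefore used below only as a label.

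The sequence upstream of the start is shown first for 5 members, chosen after values were seen: the pair that passed the test for genotype (Cox6a1 and Cox7a2l), the abundant member that varied most between libraries (Ndufs5), and a member each of complexes V and II whose promoter holds the NRF1 core motif (Atp5k and Sdhb). Each line holds the 200 bases before the RefSeq start (GRCm38.p6), 5′ to 3′ on the gene's strand. Capitals mark letters of the NRF1 core motif (GCATGCGC), the ETS motif bound by GABPA (CCGGAAG) or the SP1 GC box (GGGCGG), on either strand. Cox6a1 lies at chr5:115348959-115349158, minus strand, Cox7a2l at chr17:83514334-83514533, minus strand, Ndufs5 at chr4:123718187-123718386, minus strand, Atp5k at chr5:108434400-108434599, minus strand, and Sdhb at chr4:140961071-140961270, plus strand.
Cox6a1: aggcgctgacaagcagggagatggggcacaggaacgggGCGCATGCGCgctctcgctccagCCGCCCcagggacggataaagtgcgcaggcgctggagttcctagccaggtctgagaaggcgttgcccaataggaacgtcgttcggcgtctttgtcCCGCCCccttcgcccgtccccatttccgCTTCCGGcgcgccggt
Cox7a2l: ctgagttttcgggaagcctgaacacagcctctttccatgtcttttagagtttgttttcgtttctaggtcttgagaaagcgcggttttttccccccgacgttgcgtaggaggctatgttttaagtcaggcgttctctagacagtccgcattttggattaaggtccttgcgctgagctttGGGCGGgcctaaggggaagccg
Ndufs5: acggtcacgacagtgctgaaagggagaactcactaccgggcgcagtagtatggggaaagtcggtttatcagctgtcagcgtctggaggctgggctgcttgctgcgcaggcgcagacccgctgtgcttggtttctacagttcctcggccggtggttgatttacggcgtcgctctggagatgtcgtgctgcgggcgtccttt
Atp5k: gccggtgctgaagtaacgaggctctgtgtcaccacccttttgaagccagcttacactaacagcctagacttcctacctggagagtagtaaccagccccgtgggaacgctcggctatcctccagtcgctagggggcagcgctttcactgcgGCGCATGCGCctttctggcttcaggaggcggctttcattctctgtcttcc
Sdhb: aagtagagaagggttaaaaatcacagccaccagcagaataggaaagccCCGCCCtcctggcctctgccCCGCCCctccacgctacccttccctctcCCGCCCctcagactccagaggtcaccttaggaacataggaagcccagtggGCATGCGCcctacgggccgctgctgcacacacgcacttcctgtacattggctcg
In Cox6a1 and Atp5k the NRF1 core motif matched on both strands at overlapping positions, starting 162 and 160 bases before the start in Cox6a1 and 50 and 48 bases before it in Atp5k. Sdhb held 1 match, 54 bases before the start, and Cox6a1 also held an ETS match 16 bases before the start. Atp5k and Sdhb held an ETS match too, but outside the printed bases, in the wider promoters described below.

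NRF1 and GABPA are transcription factors long known for acting on nuclear respiratory genes. RefSeq promoters (250 bases before to 50 bases after the start) were matched for 64 of the 80 members, giving 69 promoters. Promoters of tested genes were those of the protein-coding tested genes only. The NRF1 core motif (GCATGCGC or its reverse complement) stood in 10 of the 69 member promoters (14.5%), against 4.60% of 15378 promoters of these tested genes and 2.71% of all 32851 promoters. The ETS motif (CCGGAAG) stood in 23.2% of member promoters, against 14.7% of those of tested genes and 8.86% of all. The YY1 motif (AAGATGG) stood in 14.5% of member promoters, against 6.51% of those of tested genes and 6.34% of all. The ERR alpha motif (TCAAGGTCA) stood in 2 member promoters, or 2.90%, against 0.280% and 0.423%. The cyclic AMP response element (TGACGTCA) stood in 5.80% of member promoters, against 2.77% and 1.79%. The SP1 GC box (GGGCGG) went the other way among tested genes, with 37.7% of member promoters, against 58.7% of those of tested genes and 35.7% of all. TATAAA stood in 8.70% of member promoters, against 7.65% and 13.6%. At least 1 of the NRF1, ETS, YY1 and ERR alpha motifs was found in 31 member promoters. These are letter matches on either strand in a fixed window and show no binding.

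The members made up 0.903 to 1.04% of all gene counts of a library. Levels between genes are given per kilobase of all annotated exons of the gene, divided into its CPM (RPKM), and on this scale the median member had 42.9 RPKM in complex I, 57.8 RPKM in complex II, 69.0 RPKM in complex III, 65.4 RPKM in complex IV and 43.6 RPKM in complex V. Per kilobase of the main transcript, a scale added after the data were seen, the medians were 71.1, 83.1, 105, 110 and 129 RPKM in the order of complexes I to V, so the place of complex V in this order rests on which length is used.

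**Figure D1:**
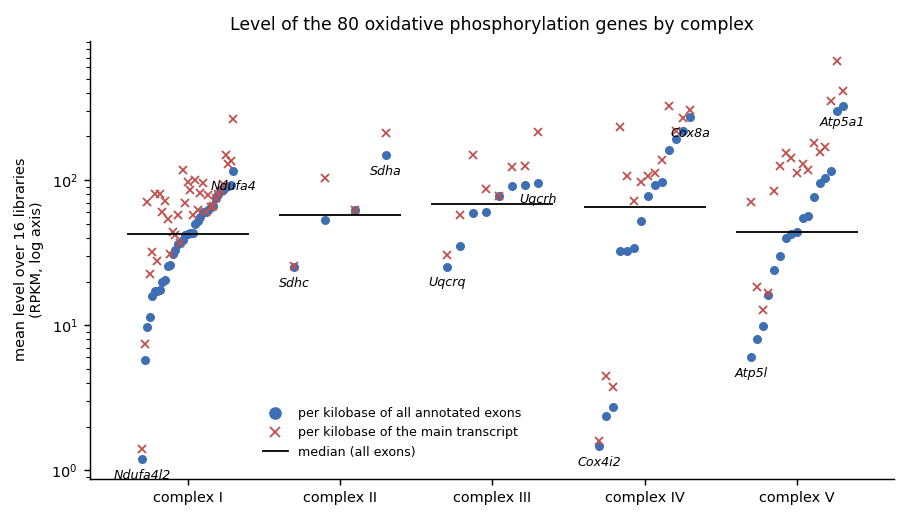
Mean level of each of the 80 members over 16 libraries (vertical log axis, RPKM), by complex, with circles per kilobase of all annotated exons, crosses per kilobase of the main transcript, and a line at the median of the circles. The members at the top and bottom of each complex are named, and Ndufa4l2 and the isoform genes at the foot of complex IV lie far below the rest.

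Atp5a1 and Atp5b, the alpha and beta subunits of the catalytic head of ATP synthase, were the most abundant members on both length scales, at 323 and 301 RPKM per exon length (main transcript length: 410 and 666 RPKM). The c-ring that turns with the proton flow is built from 1 protein encoded by several genes, and Atp5g3 made up 82.6% of their summed RPKM, Atp5g1 11.6% and Atp5g2 5.79% (main transcript length: 90.9, 4.35 and 4.78%). A near-identical copy of Atp5g2 listed with its own counts (Gm10231, 100% identical over the match) makes the Atp5g2 value uncertain. Atp5l, the subunit g of the membrane part, was lowest in complex V per exon length at 6.01 RPKM, but at 71.2 RPKM per main transcript, where Atp5s, an accessory coupling factor, was lowest at 12.7 RPKM. Atp5l had 7 near-identical copies, up to 100% identical over the match and summing to 2.84 CPM, so its value is uncertain as well.

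In complex IV the broadly expressed isoforms dominated, as is known for brain. Cox8a stood at 270.5 RPKM, Cox6a1 at 217.6 RPKM and Cox4i1 at 161 RPKM per exon length (main transcript length: 304, 267.6 and 327 RPKM). Cox4i2, the isoform known from lung and from low oxygen, made up 0.906% of the Cox4i pair. The isoforms known from heart and skeletal muscle were near the limit: Cox6a2 made up 0.300% of its pair, Cox7a1 1.54% of the set with Cox7a2 and Cox7a2l, and Cox8b 0.0596% of the Cox8 set. Among isoforms known from testis, Cox6b2 made up 1.22% and Cox7b2 0.572% of their pairs, and Cox8c had 3 counts in all 16 libraries together. Cox7a2 and Cox7a2l shared most of the Cox7a set at 54.4 and 44.1%.

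In complex I, Ndufa4 was highest at 116 RPKM (main transcript length: 263 RPKM), and Ndufb9, an accessory subunit of the membrane arm, followed at 93.2 RPKM per exon length. Per main transcript length Ndufb10 followed at 149 RPKM, with Ndufb9 at 136.5 RPKM. Ndufa4 is grouped here by its symbol, although its protein was later assigned to cytochrome c oxidase. Its paralog Ndufa4l2, known as a gene induced by low oxygen, made up 1.02% of the pair and was lowest in complex I at 1.2 RPKM. Sdha, the flavoprotein subunit that oxidises succinate, led complex II at 148 RPKM, with Sdhd, a membrane anchor, at 62.7 RPKM, Sdhb, the iron-sulphur subunit, at 52.8 RPKM, and Sdhc, the other membrane anchor, at 25.1 RPKM. Per main transcript length the order was Sdha, Sdhb, Sdhd and Sdhc, at 211, 104, 62.7 and 25.7 RPKM. In complex III, Uqcrh, the hinge protein at the cytochrome c1 side, stood at 94.9 RPKM and Uqcr10 at 92.3 RPKM, and Uqcrq was lowest at 25.4 RPKM. Per main transcript length Uqcrh stood at 215 RPKM, Uqcrc1 at 149 RPKM, Uqcr10 at 124 RPKM and Uqcrq, again lowest, at 30.6 RPKM. The 13 protein genes of mitochondrial DNA are listed in the tables with no counts, so nuclear and mitochondrial transcripts of the chain could not be compared.

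The members varied little. The median coefficient of variation over 16 libraries was 5.26%, and the median ratio of the highest to the lowest library was 1.22. In 75 of 80 members that ratio was under 1.5. Of the other 5, Cox7a1 (1.94), Cox4i2 (1.89), Ndufa4l2 (1.53) and Cox6b2 (1.52) had mean levels below 3 CPM. Ndufs5, an accessory subunit at the foot of the membrane arm of complex I, was the exception among abundant members, with a ratio of 2.43. It had 15.4, 22.0, 37.1 and 33.4 CPM in naive libraries 5 to 8 labelled KO, 27.5, 37.3, 30.1 and 26.5 CPM in WT naive libraries 1 to 4, 30.8, 28.0, 26.8 and 25.4 CPM in CFA libraries 13 to 16 labelled KO, and 31.2, 26.4, 30.6 and 26.8 CPM in CFA WT libraries 9 to 12. The groups overlapped, and library 5 was the lowest of all while library 7, of the same group, was among the highest. No near-identical copy of Ndufs5 and no exon overlap with another gene were found, and its log2 difference between naive libraries labelled KO and WT naive libraries was -0.21 ± 0.22 (SE; edgeR adjusted p = 0.740).

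Genotype within naive libraries was compared first. No member passed the test (edgeR quasi-likelihood, Benjamini-Hochberg adjusted p under 0.05 over all 18350 tested genes), against 1.45% of all genes called in either direction. At an unadjusted p under 0.05, 9 members (11.2%) were higher and 0 lower in libraries labelled KO, against 7.1% and 6.67% of all genes. DESeq2 called 2 members, or 2.5%, the same share as the 2.5% of all genes it called. The median log2 difference over members was 0.04, against 0.00 over all genes, and 69 of 80 members were on the positive side. All 17 members of complex V and all 4 of complex II had positive values, as did 32 of 37 in complex I, 11 of 14 in complex IV and 5 of 8 in complex III. The levels of 2 members did not overlap between the 2 groups with libraries labelled KO higher, against 3.83% of all genes, and 0 did so with libraries labelled KO lower, against 3.41% of all genes.

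These 2 were Ndufv2, the iron-sulphur subunit of the NADH-oxidising module, and Atp5c1, the gamma subunit that forms the rotating shaft. Ndufv2 had 133, 136, 134 and 148 CPM in naive libraries labelled KO, against 132, 129, 125 and 122 CPM in WT naive libraries (log2 0.12 ± 0.04, adjusted p = 0.147). Atp5c1 had 176.2, 182, 179.5 and 205 CPM in naive libraries labelled KO, against 176.0, 174, 170.5 and 170.5 CPM in WT naive libraries (log2 0.10 ± 0.04, adjusted p = 0.212). In both genes library 8 was the highest of the 8 and the other 3 libraries labelled KO lay just above the WT naive range. Ndufa5, an accessory subunit of the matrix arm, had 56.1, 54.1, 55.1 and 64.3 CPM in naive libraries labelled KO, against 55.7, 50.5, 50.01 and 50.3 CPM in WT naive libraries (log2 0.16 ± 0.05, adjusted p = 0.115). Sdha had 619, 638, 603 and 662 CPM in naive libraries labelled KO, against 594.5, 606, 596 and 600.2 CPM in WT naive libraries (log2 0.07 ± 0.03, adjusted p = 0.263). For Ndufa5 and Sdha the groups overlapped by 1 WT library, library 1 for Ndufa5 and library 2 for Sdha.

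In CFA libraries no member passed the test between libraries labelled KO and WT, against 1.6% of all genes. Unadjusted, 2 members had p under 0.05 as higher and 2 as lower, against 5.73% and 6.55% of all genes, and DESeq2 called 0, against 2.53% of all genes. The median log2 difference over members was -0.03, against 0.00 over all genes, and 60 of 80 members were on the negative side, among them all 8 of complex III and 14 of 17 of complex V. Levels did not overlap for 1 member with libraries labelled KO higher (3.78% of all genes) and for 2 with libraries labelled KO lower (4.25% of all genes). The higher one was Cox6a1, described below. The lower ones were Cox7a2 and Ndufb2. Cox7a2 had 88.4, 89.2, 84.7 and 89.4 CPM in CFA libraries labelled KO, against 92.9, 98.2, 90.7 and 101 CPM in CFA WT libraries (log2 -0.12 ± 0.05, adjusted p = 0.269). Ndufb2, an accessory subunit of the membrane arm whose exons overlap those of Braf, had 31.86, 32.04, 32.42 and 33.20 CPM in CFA libraries labelled KO, against 33.25, 34.68, 34.17 and 33.22 CPM in CFA WT libraries (log2 -0.06 ± 0.04, adjusted p = 0.523).

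Genotype averaged over naive and CFA libraries gave the 2 calls among the members. Cox6a1 and Cox7a2l, both of complex IV, were higher in libraries labelled KO, and none was lower, while 3.73% of all genes were called in either direction and 1.74% as higher. At an unadjusted p under 0.05, 6 members (7.5%) were higher and 1 lower, against 7.23% and 7.11% of all genes, and DESeq2 also called 2 members (2.5%), against 4.38% of all genes. The median over members was 0.01, against 0.00 over all genes. Among astrocyte markers, 9 of 10 were negative for the genotype average (median log2 -0.07), 4 of them at an unadjusted p under 0.05, and Ntsr2, a neurotensin receptor of astrocytes, was called lower (log2 -0.29 ± 0.04, edgeR adjusted p = 0.000722). They summed to 3312 to 3649 CPM in naive libraries labelled KO, 3373 to 3521 CPM in WT naive libraries, 3127 to 3379 CPM in CFA libraries labelled KO and 3522 to 3611 CPM in CFA WT libraries.

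Cox6a1 encodes the liver-type subunit VIa, the form used in most tissues, which sits at the surface of the oxidase dimer. It had 155, 171, 159 and 182 CPM in naive libraries 5 to 8 labelled KO, against 158, 129, 127 and 138 CPM in WT naive libraries 1 to 4. It had 183, 161, 147 and 168 CPM in CFA libraries 13 to 16 labelled KO, against 139, 141.5, 142 and 143 CPM in CFA WT libraries 9 to 12. In naive libraries the groups overlapped by WT library 1 alone, and in CFA libraries all 4 labelled KO lay above all 4 WT. The average log2 difference was 0.25 ± 0.05 (SE), a 1.19-fold higher level (95% interval 1.1 to 1.28; edgeR adjusted p = 0.0113). Within naive libraries it was 0.27 ± 0.07 (adjusted p = 0.0816) and within CFA libraries 0.22 ± 0.07 (adjusted p = 0.178), and the interaction was -0.05 ± 0.10 (adjusted p = 0.905). Over all alternatives run for the average, the adjusted p for Cox6a1 lay between 6.5e-05 and 0.0407. Cox6a1 lies on chromosome 5 (mm10, bases 115345642 to 115348981, minus strand), and of 44 other tested genes within 1 Mb of it 11 were called for the genotype average, among them Rplp0 (log2 -0.86), Coq5 (0.29) and Gcn1l1 (0.44). This window was looked at after the Cox6a1 values were seen, and its part in the result was not tested.

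Cox7a2l encodes a Cox7a-like protein known for joining complexes III and IV into supercomplexes. It had 116, 125, 123 and 127 CPM in naive libraries labelled KO, against 117.5, 109, 108 and 107 CPM in WT naive libraries. It had 118, 124, 113 and 116 CPM in CFA libraries labelled KO, against 109, 115, 108 and 114 CPM in CFA WT libraries. The groups overlapped in both conditions, by library 1 in naive libraries and by the upper 2 WT libraries after CFA. The average log2 difference was 0.12 ± 0.03, a 1.09-fold higher level (95% interval 1.04 to 1.13; edgeR adjusted p = 0.0149). This call was lost with marker scores of neurons, oligodendrocytes and astrocytes in the model (log2 0.09, adjusted p = 0.253), where Cox6a1 stayed past the threshold and 1.39% of all genes were called. Within naive libraries the adjusted p was 0.0508 (log2 0.15 ± 0.04), and within CFA libraries 0.373 (log2 0.08 ± 0.04). On chromosome 17 (mm10, bases 83501918 to 83517330, minus strand), 0 of 8 other tested genes within 1 Mb were called for the average by edgeR.

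Cox7a2, the paralog of Cox7a2l, was not called, with a genotype average of -0.07 ± 0.03 (edgeR adjusted p = 0.358). It had 89.7 ± 7.29 CPM in naive libraries labelled KO and 90.9 ± 3.95 CPM in WT naive libraries (SD, n = 4 each). Its lower levels were those of the CFA libraries labelled KO given above. The share of Cox7a2l in the summed RPKM of Cox7a1, Cox7a2 and Cox7a2l was 46.0 ± 2.02% in naive libraries labelled KO and 43.1 ± 0.574% in WT naive libraries, and 45.4 ± 0.695% in CFA libraries labelled KO and 41.9 ± 0.584% in CFA WT libraries (SD, n = 4 each). This share contains the called Cox7a2l and was not tested.

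**Figure D2:**
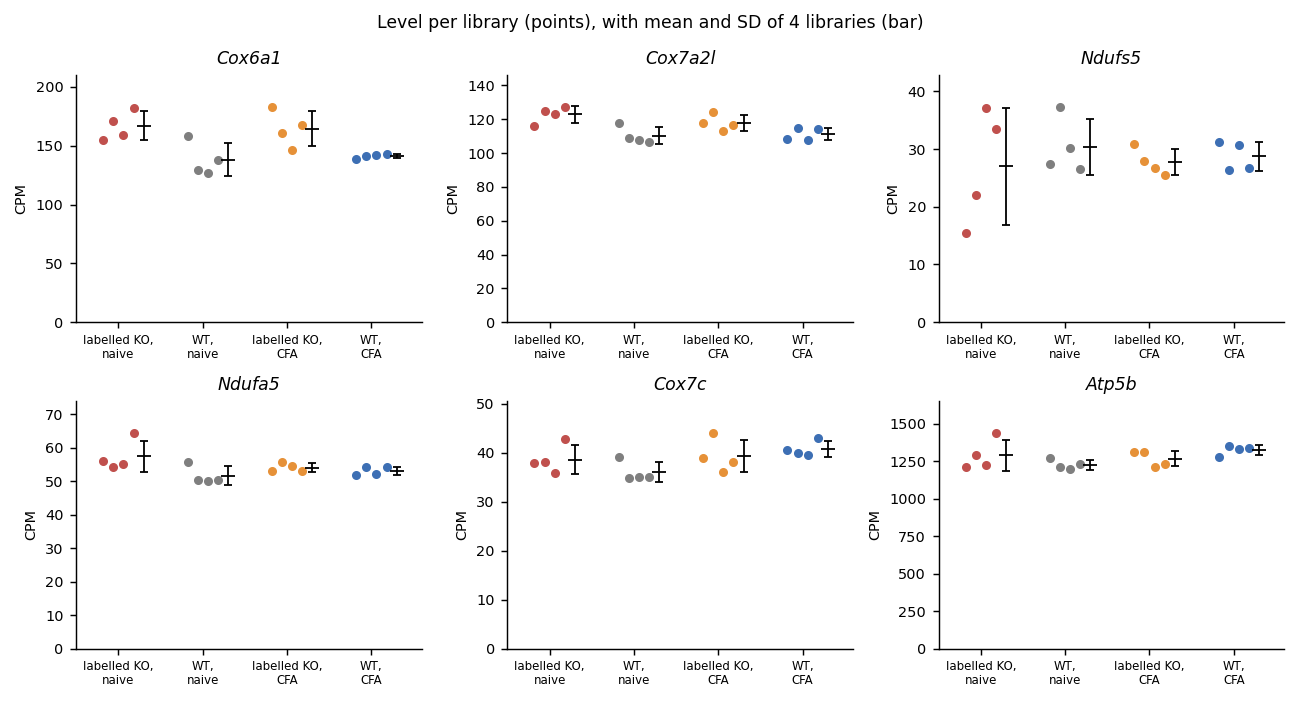
Level of 6 members in every library (points, CPM; vertical axes start at 0), by group, with the mean and SD of 4 libraries beside them. Cox6a1 and Cox7a2l lie higher in libraries labelled KO with overlap at WT naive library 1 and, for Cox7a2l, also between the CFA groups, and Ndufs5 is spread from 15.4 to 37.1 CPM within the naive libraries labelled KO.

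CFA against naive was compared within WT libraries next, and no member passed the test, against 2.23% of all genes. At an unadjusted p under 0.05, 8 members (10%) were higher after CFA, near the 9.02% of all genes, and 0 were lower, against 8.54% of all genes. DESeq2 called 0 members, against 4.8% of the 15859 genes it gave an adjusted p. The median log2 difference over members was 0.04, against 0.00 over all genes, with 60 of 80 members positive. Levels did not overlap for 7 members with CFA higher, or 8.75% of members, against 6.13% of all genes, and for 0 with CFA lower, against 5.17% of all genes. The 7 were Atp5a1, Atp5b and Atp5c1 of the ATP synthase head, Ndufb2 and Ndufb9 of complex I, Uqcrh of complex III and Cox7c of complex IV.

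Atp5b had 1276, 1352, 1331 and 1339 CPM in CFA WT libraries, against 1270.4, 1209, 1195 and 1231 CPM in WT naive libraries (log2 0.11 ± 0.04, adjusted p = 0.189). Cox7c, a small subunit VIIc of the oxidase, had 40.5, 39.8, 39.5 and 43.1 CPM in CFA WT libraries, against 39.1, 34.8, 35.1 and 35.0 CPM in WT naive libraries (log2 0.18 ± 0.06, adjusted p = 0.105). In both genes WT naive library 1 stood next to the CFA range and the other 3 naive libraries well below it. Atp5b and Cox7c (2.5% of members) passed the test in a fit of only these 2 groups, where 3.37% of all genes did. Atp5a1 had 1021, 1049.7, 1041 and 1048 CPM in CFA WT libraries, against 1014, 984, 957 and 976 CPM in WT naive libraries (log2 0.08 ± 0.03, adjusted p = 0.200).

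Within libraries labelled KO, CFA against naive gave 0 called members, against 0.185% of all genes. At an unadjusted p under 0.05, 0 members were higher and 6 (7.5%) lower after CFA, against 3.78% and 4.03% of all genes. DESeq2 called 0, against 0.574% of the 15859 genes it gave an adjusted p. The median over members was -0.04, against -0.00 over all genes, with 68 of 80 members negative, among them all 17 of complex V, all 8 of complex III and all 4 of complex II. No member's levels were free of overlap in either direction, against 2.13% of all genes with CFA higher and 2.17% with CFA lower. The members with the lowest p were Ndufb3 and Ndufa6, accessory subunits of complex I. Ndufb3 had 49.8, 49.9, 47.8 and 49.2 CPM in CFA libraries labelled KO, against 53.3, 49.7, 52.0 and 58.2 CPM in naive libraries labelled KO (log2 -0.12 ± 0.04, adjusted p = 0.451). Ndufa6 had 69.7, 68.1, 64.6 and 64.5 CPM in CFA libraries labelled KO, against 69.8, 73.6, 69.4 and 76.6 CPM in naive libraries labelled KO (log2 -0.11 ± 0.04, adjusted p = 0.451).

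The interaction of genotype and CFA was called for 0 members by edgeR, against 0.0654% of all genes. Unadjusted, p was under 0.05 for 0 members as positive and 9 (11.2%) as negative, against 4.47% and 5.39% of all genes. DESeq2 called 0, against 0.493% of the 17638 genes it gave an adjusted p. The median over members was -0.07, with 72 of 80 negative, and the lowest p was that of Ndufa6 (log2 -0.16 ± 0.06, adjusted p = 0.348). The interaction uses the same libraries as the comparisons above. CFA averaged over genotypes was called for 0 members by edgeR, against 1.81% of all genes, and the median was -0.00. Unadjusted, 2 members had p under 0.05 as higher and 1 as lower, against 7.43% and 7.2% of all genes. DESeq2 called 0, against 3.97% of the 14436 genes it gave an adjusted p.

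**Figure D3:**
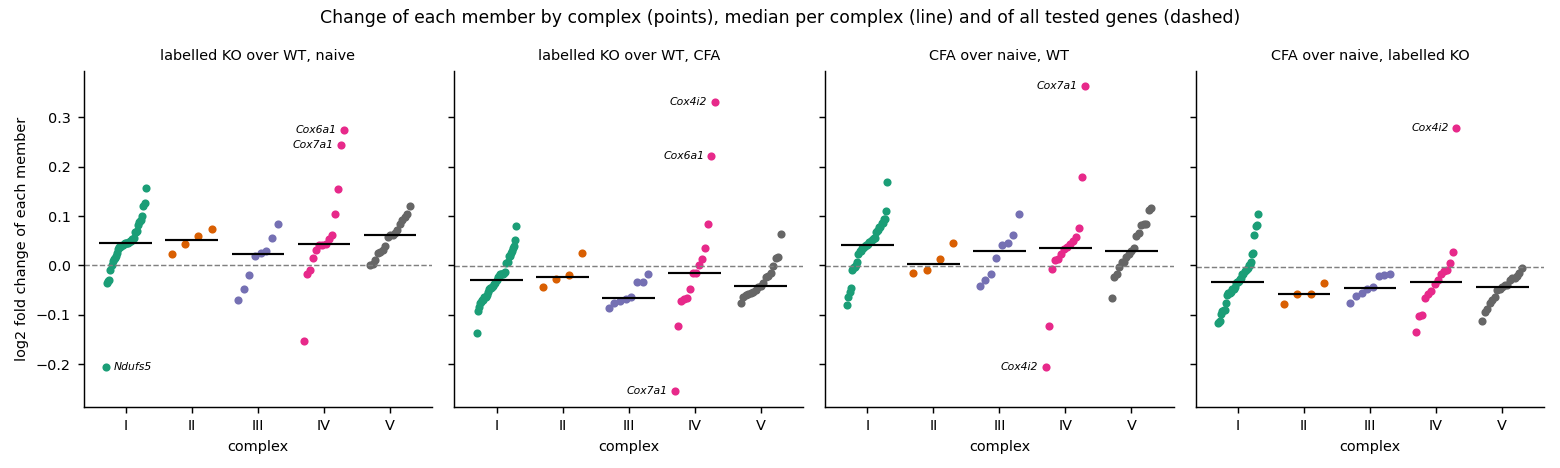
Log2 fold change of each member (points) by complex in 4 comparisons, with the median of each complex as a line and that of all tested genes dashed. Most points lie above 0 for libraries labelled KO over WT in naive libraries and for CFA over naive in WT, and below 0 in the other 2 comparisons, and the widest points belong to scarce isoforms, Cox6a1 and Ndufs5.

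The sum over all 80 members overlapped between the libraries of every pair of groups. It ran from 9176 to 10494 CPM in naive libraries labelled KO, 8989 to 9759 CPM in WT naive libraries, 9000 to 9721 CPM in CFA libraries labelled KO and 9479 to 9777 CPM in CFA WT libraries. Its mean was 9665 ± 593 CPM in naive libraries labelled KO and 9288 ± 330.1 CPM in WT naive libraries, and 9413 ± 324 CPM in CFA libraries labelled KO and 9624 ± 167 CPM in CFA WT libraries (SD, n = 4 each). Complex I summed to 2682 ± 160 CPM in naive libraries labelled KO and 2597 ± 98.2 CPM in WT naive libraries, and to 2620 ± 89.98 CPM in CFA libraries labelled KO and 2672 ± 46.5 CPM in CFA WT libraries. Complex V summed to 3815 ± 253 CPM in naive libraries labelled KO and 3648 ± 114 CPM in WT naive libraries, and to 3716 ± 128 CPM in CFA libraries labelled KO and 3845 ± 65.5 CPM in CFA WT libraries. For complexes II, III and IV the group means lay within 875 to 914 CPM, 856 to 885 CPM and 1304 to 1369 CPM. Levels in bulk punches cannot tell fewer cells of a type from less RNA per cell.

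**Figure D4:**
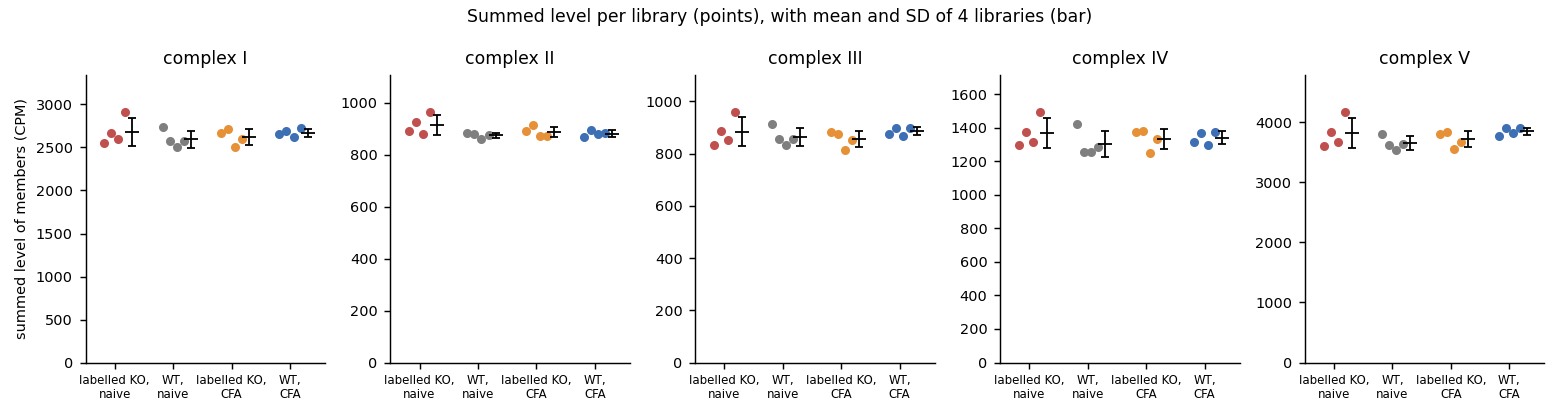
Summed level of the members of each complex (CPM, vertical axes from 0) in every library (points), by group, with the mean and SD of 4 libraries. The groups overlap in all 5 complexes, and the highest naive library labelled KO is library 8 in each.

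The members moved together from library to library, whatever the complex. For each gene the deviation of log2 level from its group mean was taken in each library, and over the 16 libraries the mean correlation between pairs of members was 0.58 within a complex (927 pairs) and 0.61 between complexes (2233 pairs). All pairs share the same libraries, so this is a description. It was 0.69 within complex V, 0.63 within complex III, 0.61 within complex IV, 0.58 within complex II and 0.55 within complex I. Among all tested genes the mean was 0.00, but positive and negative correlations can cancel there, so it sets no baseline for a gene set. Glycolysis genes had a mean of 0.45. The median member correlated at 0.83 with the mean of the others, led by Atp5h, the subunit d of the ATP synthase stalk, at 0.96. Cox6b2 (0.12), Ndufa4l2 (0.16), Ndufs5 (0.21) and Ndufb2 (0.26) followed the others least.

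Of the 80 members, 55 had their highest level in naive library 8 labelled KO, and 11 in WT naive library 1. The lowest level fell in CFA library 15 labelled KO for 28 members and in WT naive library 3 for 16. The median deviation of the members from their mean over all 16 libraries was 0.14 (log2) in library 8, -0.02 to 0.02 in 2 of the other naive libraries labelled KO and -0.04 in library 5. In WT naive libraries it was 0.07 in library 1 and -0.03 to -0.07 in the others. In CFA libraries labelled KO it was -0.08 in library 15 and -0.03 to 0.03 in the others, and in CFA WT libraries -0.02 to 0.04.

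The medians given above depended on single libraries. For genotype in naive libraries the median of 0.04 was 0.00 without library 8, 0.03 without library 3, and 0.07 without library 1 or library 5. Without WT naive library 1, 3 members (3.75%) were called there, Cox6a1, Cox7a2l and Ndufa5, against 1.22% of all genes. For genotype in CFA libraries the median of -0.03 was -0.02 without library 15 or library 10. For CFA in WT the median of 0.04 was 0.07 without library 1, and 0.02 without library 3 or library 10. For CFA in libraries labelled KO the median of -0.04 was 0.01 without library 8, where the sign turned, -0.01 without library 15 and -0.07 without library 5. The interaction median of -0.07 was -0.03 without library 8. For the genotype average the median lay between -0.01 and 0.02, and its sign turned without library 3, library 8 or library 14. For the CFA average it lay between -0.02 and 0.02, and its sign turned without library 1, 8, 11, 15 or 16.

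Other gene lists moved in the same libraries, but not all lists varied closely within themselves. The mean pairwise correlation of deviations from group means was 0.93 for oligodendrocyte markers, 0.12 for neuron markers and 0.06 for astrocyte markers. The 16 genes of the citric acid cycle and pyruvate dehydrogenase had a mean pairwise correlation of 0.64, and 15 of 16 were positive for genotype in naive libraries, 15 of 16 negative in CFA libraries, and 14 of 16 positive for CFA in WT, with 0 called by edgeR in these comparisons. Without adjustment, p was under 0.05 for 3 of them as higher for genotype in naive libraries, 2 as lower in CFA libraries and 3 as higher for CFA in WT, and DESeq2 called 0, 0 and 1. The unadjusted shares of all genes were 7.1%, 6.55% and 9.02% in that order. DESeq2 called 2.5%, 2.53% and 4.8% of the genes it gave an adjusted p. Oligodendrocyte markers, 10 of 10 detected, were positive for genotype in naive libraries in 10 of 10 and negative in CFA libraries in 10 of 10. None was called by edgeR or by DESeq2. At an unadjusted p under 0.05, 1 of these markers was higher in naive libraries (7.1% of all genes) and 0 were lower in CFA libraries (6.55% of all genes). They summed to 7016 to 11307 CPM in naive libraries labelled KO, 6650 to 8604 CPM in WT naive libraries, 7050 to 9463 CPM in CFA libraries labelled KO and 8462 to 9621 CPM in CFA WT libraries, and library 8 was the highest of all. Neuron markers were positive for genotype in naive libraries in 11 of 12, and summed to 6881 to 7889 CPM in naive libraries labelled KO, 6656 to 7135 CPM in WT naive libraries, 6817 to 7324 CPM in CFA libraries labelled KO and 7297 to 7568 CPM in CFA WT libraries. No marker of these 2 lists was at 0. For CFA in WT, 8 of 12 neuron markers were positive, and Nefl (log2 0.40 ± 0.07, adjusted p = 0.0118) and Nefm (log2 0.52 ± 0.11, adjusted p = 0.0326), which encode neurofilaments, were called higher by edgeR. Of all genes 2.23% were called there in either direction. Neuron markers were negative in 8 of 12 for genotype in CFA libraries and in 9 of 12 for CFA in libraries labelled KO. There edgeR called 0 of them, against 1.6% and 0.185% of all genes. Oligodendrocyte markers were positive for CFA in WT in 9 of 10 (median log2 0.21) and negative for CFA in libraries labelled KO in 10 of 10 (median -0.20). In these comparisons edgeR and DESeq2 called 0 of them, with 0 and 1 at an unadjusted p under 0.05. The unadjusted shares of all genes were 9.02% as higher for CFA in WT and 4.03% as lower for CFA in libraries labelled KO. With scores of neurons, oligodendrocytes and astrocytes in the model, the median over members was -0.04 in place of 0.04 for genotype in naive libraries, -0.01 in place of 0.04 for CFA in WT, and -0.05 in place of 0.01 for the genotype average. In that model it was -0.02 in place of -0.07 for the interaction, -0.06 in place of -0.03 for genotype in CFA libraries and -0.03 in place of -0.04 for CFA in libraries labelled KO. That model added these scores to the group means of only 16 libraries, and the neuron and astrocyte markers varied little together, as given above. Of 11 tested thalamic relay markers, 8 were positive for genotype in naive libraries and 6 for CFA in WT. For genotype in CFA libraries 7 were positive, and for CFA in libraries labelled KO 4. Ntng1 was called higher for genotype in naive libraries (log2 0.17 ± 0.04, edgeR adjusted p = 0.0359; 1.45% of all genes called). It was also called higher for CFA in WT (log2 0.21 ± 0.04, adjusted p = 0.0105, with 2.23% of all genes called). The part of cell composition in the members' levels was not tested.

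**Figure D5:**
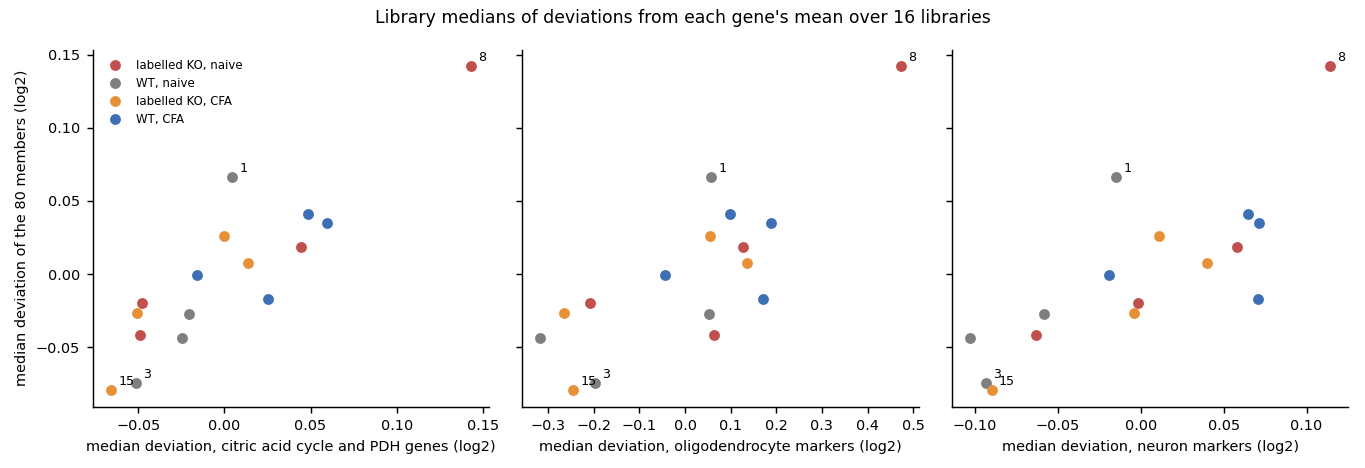
Median deviation of the 80 members (vertical, log2) in each of 16 libraries against the same median for citric acid cycle genes, oligodendrocyte markers and neuron markers (horizontal, log2), coloured by group, with libraries 1, 3, 8 and 15 numbered. Library 8 is the highest on all 4 measures, and libraries 3 and 15 are near the low end of each.

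Genes around the chain were given from lists of assembly factors, carriers, regulators, citric acid cycle and glycolysis, chosen with earlier results of these data known. Of the 101 tested genes on these lists 0 were called by edgeR in the 4 comparisons of 2 groups or in the interaction. Of all genes, 1.45% were called for genotype in naive libraries, 1.6% for genotype in CFA libraries and 2.23% for CFA in WT. For CFA in libraries labelled KO and for the interaction, 0.185% and 0.0654% of all genes were called. Before adjustment, p was under 0.05 for 12 as higher and 4 as lower for genotype in naive libraries, against 7.1% and 6.67% of all genes. For genotype in CFA libraries 3 were higher and 7 lower, against 5.73% and 6.55% of all genes. For CFA in WT 10 were higher and 5 lower, against 9.02% and 8.54%. For CFA in libraries labelled KO 1 was higher and 4 lower, against 3.78% and 4.03%. For the interaction 3 were positive and 12 negative, against 4.47% and 5.39%. DESeq2 called 0, 1, 4, 0 and 1 in that order, against 2.5%, 2.53%, 4.8%, 0.574% and 0.493% of the genes it gave an adjusted p. Of all genes, edgeR called 1.74% higher for the genotype average and 3.73% in either direction. For the genotype average, 2 of 30 tested assembly factors of complexes II to V were higher in libraries labelled KO: Uqcc1, which assists complex III assembly (log2 0.12 ± 0.03, adjusted p = 0.0176), and Cox18, an insertase for cytochrome c oxidase (log2 0.36 ± 0.08, adjusted p = 0.0191). Of 14 biogenesis regulators 1 was lower, Twnk, the helicase of mitochondrial DNA (log2 -0.14 ± 0.04, adjusted p = 0.0492). Of 16 glycolysis genes 0 were called for genotype, and Gapdh was lower for CFA averaged over genotypes (log2 -0.13 ± 0.03, adjusted p = 0.0221). For that CFA average edgeR called 1.81% of all genes in either direction. None of 11 carriers and further subunits was called by edgeR or DESeq2 in any of the 7 comparisons. Of 14 complex I assembly factors edgeR called 0. DESeq2 called 1 of them for CFA in WT and 1 for the genotype average, against 4.8% and 4.38% of the genes it gave an adjusted p.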

How the data were processed

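The authors deposited 1 table of raw counts per gene for each of the 16 libraries, in the output format of htseq-count, with no version or settings stated. The submitters' processing notes name TopHat, DESeq2 and the build mm10, and per the labels' protocols total RNA was made into TruSeq version 2 mRNA libraries, a kit that does not mark strand. Reads of overlapping or near-identical genes therefore cannot always be told apart: exons of 25 of the 80 members overlap another gene, and 14 members have a copy at least 90% identical over at least 50% of the main transcript (blastn 2.17.0). Between 38 and 39.9% of the reads listed in the tables, with no gene or several or no unique position, stayed out of all totals.

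Symbols, exon lengths and main transcripts came from GENCODE M21. The members and all gene lists were chosen with earlier results of these data known. Counts were fitted with edgeR 4.0.16 (TMM, minimum count 10 in filterByExpr, 18350 genes, robust quasi-likelihood, 1 mean per group) in R 4.3.3, two-sided, with Benjamini-Hochberg adjustment over all genes and a threshold of 0.05. All 80 members passed this filter. The floor of 1 CPM for members used unscaled library totals, and printed CPM and RPKM used TMM-scaled totals. Named members were those called, up to 4 per complex and comparison with the lowest p, the highest and lowest levels per complex, and paralogous isoforms. Called genes of the other energy lists and Rgs4 were named too. Members without overlap between groups, the members least and most alike, Ndufs5, the neighbours of Cox6a1 and the promoters shown were singled out after values were seen. Alternatives were RLE and upper-quartile scaling, no filter, DESeq2 1.42.0, 2-group fits, thinning to the smallest library total, marker scores, a floor of 5 CPM and leaving out each library. DESeq2 left some tested genes without an adjusted p, and its shares are of the rest. These were 15859 genes for CFA within either genotype, 17638 for the interaction, 14436 for the CFA average and 18350 otherwise. The labels call the 4 libraries of a group biological replicates, each pooled from 2 mice. The scripts were checked on simulated data.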

Additional observations from a re-analysis of the deposited data

Results flagged for a closer look

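In 92 checks of 23 values (16 members, 6 summed levels and Rgs4) in 4 groups of 4 libraries, 4 had 1 library far from the other 3, and chance gives about 1 in 20. Ndufa5 had 55.7 CPM in WT naive library 1, against 50.01 to 50.5 CPM in the other WT naive libraries. Cox7c had 39.1 CPM in WT naive library 1, against 34.8 to 35.1 CPM in the others of that group. Ndufb3 had 51.9 CPM in CFA WT library 10, against 49.1 to 49.2 CPM in the others of that group. Ndufb2 had 32.6 CPM in WT naive library 4, against 31.3 to 31.5 CPM in the others of that group.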

How the results depend on the processing

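No paired analysis was possible because the library numbers run from 1 to 16 through the series and no 2 groups share one. For genotype in naive libraries, the count of called members was 1 with RLE scaling (1.48% of all genes), 1 with no filter on low counts (0.939%) and 2 with DESeq2 (2.5%), against 0 reported, and 0 to 3 when leaving out 1 library. Cox7a2l was called in each of these, with Cox6a1 in DESeq2 and with Cox6a1 and Ndufa5 without WT naive library 1, and it was called alone without naive library 5 labelled KO, without CFA WT library 9 and without CFA library 14 labelled KO. The median over members for that comparison was -0.040 with marker scores in the model, and 0.00 to 0.07 when leaving out 1 library. For CFA in WT, 2 members, Atp5b and Cox7c, were called in a fit of only the 2 groups. For the genotype average, the count was 1 with marker scores, and 2 to 3 when leaving out 1 library, with Ndufa12 added without WT naive library 1. The causes of these differences were not tested. Counts of called members were 0 under all alternatives run for genotype in CFA libraries, CFA in libraries labelled KO, the interaction and the CFA average. Over 3317 alternatives for single named members, 3245 kept their direction and side of the threshold, 58 turned sign (lowest adjusted p with or without the alternative 0.317), and the 13 that passed the threshold and the 1 that lost it are the calls given above and that of Cox7a2l with marker scores. The 58 sign changes were as follows. With marker scores, for genotype in naive libraries, the log2 value was -0.0065 for Atp5a1, -0.015 for Sdhb, -0.0026 for Sdhc, -0.032 for Sdhd, -0.021 for Uqcrc2 and -0.030 for Uqcrh. With marker scores, for CFA in WT, the log2 value was -0.11 for Cox6a1, -0.063 for Cox7a2l, -0.0073 for Ndufv1, -0.011 for Sdhc and -0.055 for Uqcrq. With marker scores, for CFA in libraries labelled KO, the log2 value was 0.034 for Cox6a1. With marker scores, for the interaction, the log2 value was 0.15 for Cox6a1, 0.019 for Cox7a2l and 0.085 for Uqcrc1. With marker scores, for the genotype average, the log2 value was -0.022 for Atp5j, -0.022 for Atp5j2, -0.072 for Cox6c, -0.039 for Sdhb, -0.011 for Sdhc and -0.059 for Sdhd. With marker scores, for the CFA average, the log2 value was -0.040 for Cox6a1. With libraries thinned, for CFA in WT, the log2 value was 0.012 for Cox4i2 and 0.0053 for Sdhb. With libraries thinned, for the genotype average, the log2 value was -0.0058 for Sdhd. With libraries thinned, for the CFA average, the log2 value was -0.046 for Cox7a1. With no filter on low counts, for the genotype average, the log2 value was -0.0012 for Sdhd. Leaving out 1 library, for genotype in naive libraries, it ran from -0.012 to 0.055 for Sdhd and from -0.074 to 0.018 for Uqcr11. Leaving out 1 library, for CFA in WT, it ran from -0.0035 to 0.10 for Cox6a1, from -0.0024 to 0.044 for Cox7a2l, from -0.022 to 0.012 for Sdhb and from -0.044 to 0.017 for Sdhd. Leaving out 1 library, for CFA in libraries labelled KO, it ran from -0.076 to 0.032 for Cox6a1. Leaving out 1 library, for the genotype average, it ran from -0.0050 to 0.021 for Sdhb, from -0.011 to 0.025 for Sdhc and from -0.015 to 0.018 for Sdhd. Leaving out 1 library, for the CFA average, it ran from -0.020 to 0.043 for Cox6a1, from -0.021 to 0.00092 for Sdha, from -0.023 to 0.013 for Sdhc and from -0.0014 to 0.060 for Uqcrh. Thinning all libraries to the smallest total, 18057885 counts, changed no count of called members.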
